A study of Mus musculus x Mus spretus with 8 samples.

Results

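RNA of Patski cells labelled as homozygous null for Stc1 was compared directly with RNA of Patski cells labelled as homozygous null for Rlim, using 2 libraries of each, 4 of the 8 libraries in the series. Patski is an established female mouse line described as fibroblasts, from a cross of C57BL/6 and SPRET/EiJ, grown in DMEM with 10% serum. Every group shares that hybrid background. The other libraries are 2 of wild type (WT) and 2 labelled null for Pygo1; they entered the estimate of spread but not the contrast, and WT values are set beside the results as a reference. Per the series text each knockout label stands for a pair of independent mutants, so by that text each label rests on 2 lines. The p-values here reflect the spread within groups, pooled over all 8 libraries with WT included, no more. They do not measure the spread of the Stc1-labelled pair alone, which was the widest of the groups. All directions below are given for Stc1-labelled relative to Rlim-labelled libraries.

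Stc1 encodes stanniocalcin 1, a secreted glycoprotein that acts on calcium and phosphate handling, and is best known in the kidney. Rlim encodes an X-linked RING-type E3 ubiquitin ligase that marks LIM-domain cofactors and the pluripotency factor REX1 for degradation, and through the latter promotes Xist, the noncoding RNA that silences an X chromosome in female cells. In a hybrid line the parental chromosomes carry many sequence differences, and a read that covers such a difference shows from which parent its RNA came, so RNA from the members of a chromosome pair is counted apart.

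The total counts lay between 73128996 and 76560193 in the 4 libraries, and 50.64 to 52.64% of the counts in all 8 libraries carried a genome, called genome 1 or genome 2 in the files; which of them belongs to which parent is not stated in the labels. Mitochondrial genes took 7.87 and 4.64% of the counts in the Stc1-labelled pair against 6.67 and 6.37% in the Rlim-labelled pair. Levels are in CPM, the counts of a gene scaled to a common library size. Over 10445 genes averaging 5 CPM or more, the Stc1-labelled replicates differed from each other by a median of 0.341 on the log2 scale and the Rlim-labelled replicates by 0.0579, and the difference was over 2-fold for 1014 and 0 genes. The WT replicates differed by 0.0951, with 3 genes over 2-fold, so the Rlim-labelled pair lay closer together than the WT pair. Whether the Rlim-labelled libraries come from separate lines was not tested. Of the fibroblast markers, Vim was at 851 to 1060, Pdgfra at 2.06 to 13.2, Col1a1 at 2.33 to 5.62 and S100a4 at 1.12 to 3.86 CPM. Col3a1, Dcn and Pdgfrb were below 1 CPM in all 4 libraries, and Thy1, Lum, Col1a2 and Fap did not pass the expression filter. Of the nephric epithelium markers, Pax2 was at 844 to 1160, Pax8 at 455 to 623 and Cdh16 at 1540 to 2360 CPM, while Cldn2 was at 22.5 to 26.1, Fxyd2 at 3.88 to 8.48, Gata3 at 1.4 to 1.81 and Lhx1 at 0.0139 to 0.21 CPM. Of 6 leukocyte markers tested, Ptprc and Lyz2 were at or below 0.288 CPM and Fcer1g at or below 0.332 CPM, but Cd68 was at 2.64 to 4.19, Csf1r at 26.5 to 57 and Cd14 at 47.9 to 66.8 CPM.

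Both targets were measurable. Stc1 (chromosome 14, 69029238 to 69041804, GRCm38) was at 3.67 and 68.4 CPM in the Stc1-labelled pair against 13.5 and 12.4 CPM in the Rlim-labelled pair, with WT at 3.84 and 3.15 CPM. Of the 4 libraries compared, replicate 2 of its own label stood highest and replicate 1 lowest, so the groups overlapped. The log2 fold change was 1.48 ± 1.07 (SE, n = 2 libraries each; edgeR quasi-likelihood, adjusted p = 0.559), and without Stc1-labelled replicate 2 it turned to -1.82. Of the Stc1 reads with a genome, genome 1 gave 64.2% in Stc1-labelled replicate 1, 68.5 and 71.6% in the Rlim-labelled pair, and 7.3% of 2533 reads in Stc1-labelled replicate 2. The high Stc1 RNA of replicate 2 was thus mostly genome 2 RNA.

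Rlim (chromosome X, 103957163 to 103981284) was at 33.9 and 75.8 CPM in the Stc1-labelled pair against 71.9 and 64.2 CPM in the Rlim-labelled pair, again with overlap. Its log2 fold change was -0.31 ± 0.369 (SE; edgeR, adjusted p = 0.725) and turned to 0.153 without Stc1-labelled replicate 1. Neither target was lower past the test under its own label. A gene count does not tell an edited transcript from an intact one, so the groups are called by their labels throughout.

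Few genes separated the labels past the test, with the most lower genes on chromosome 2 (23) and the most higher genes on chromosome 6 (5). Of 17839 genes tested, 20 were higher in the Stc1-labelled pair (0.112%) and 48 were lower (0.269%) at an edgeR adjusted p under 0.05, in all 68 (0.381%), of which 61 differed at least 2-fold. The split was 44 higher and 16 lower by limma voom, 10 and 2 with the compared groups fitted alone, and 434 and 440 by DESeq2, so the excess of lower genes did not hold across fits. The median log2 fold change over all genes was 0.0201, with the middle 50% between -0.239 and 0.302. A second rule, with no test, was added after the values were seen. It counts genes 2-fold apart in every pairing of a Stc1-labelled with a Rlim-labelled library, taking 3 counts as the floor. By this rule 167 genes were higher (0.936%) and 370 were lower (2.07%), in all 537 (3.01%), among them 57 of the 68 genes that passed. The labels did not overlap for 4011 genes that were higher (22.5%) and 4168 that were lower (23.4%). The number that passed was 4 when either WT replicate was left out and 2 when either Rlim-labelled replicate was. It was 4844 when Stc1-labelled replicate 1 was left out and 917 when its replicate 2 was, and DESeq2 called 874. Sirpa and Stom were the named genes that passed in each of these fits.

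**Figure D1:**
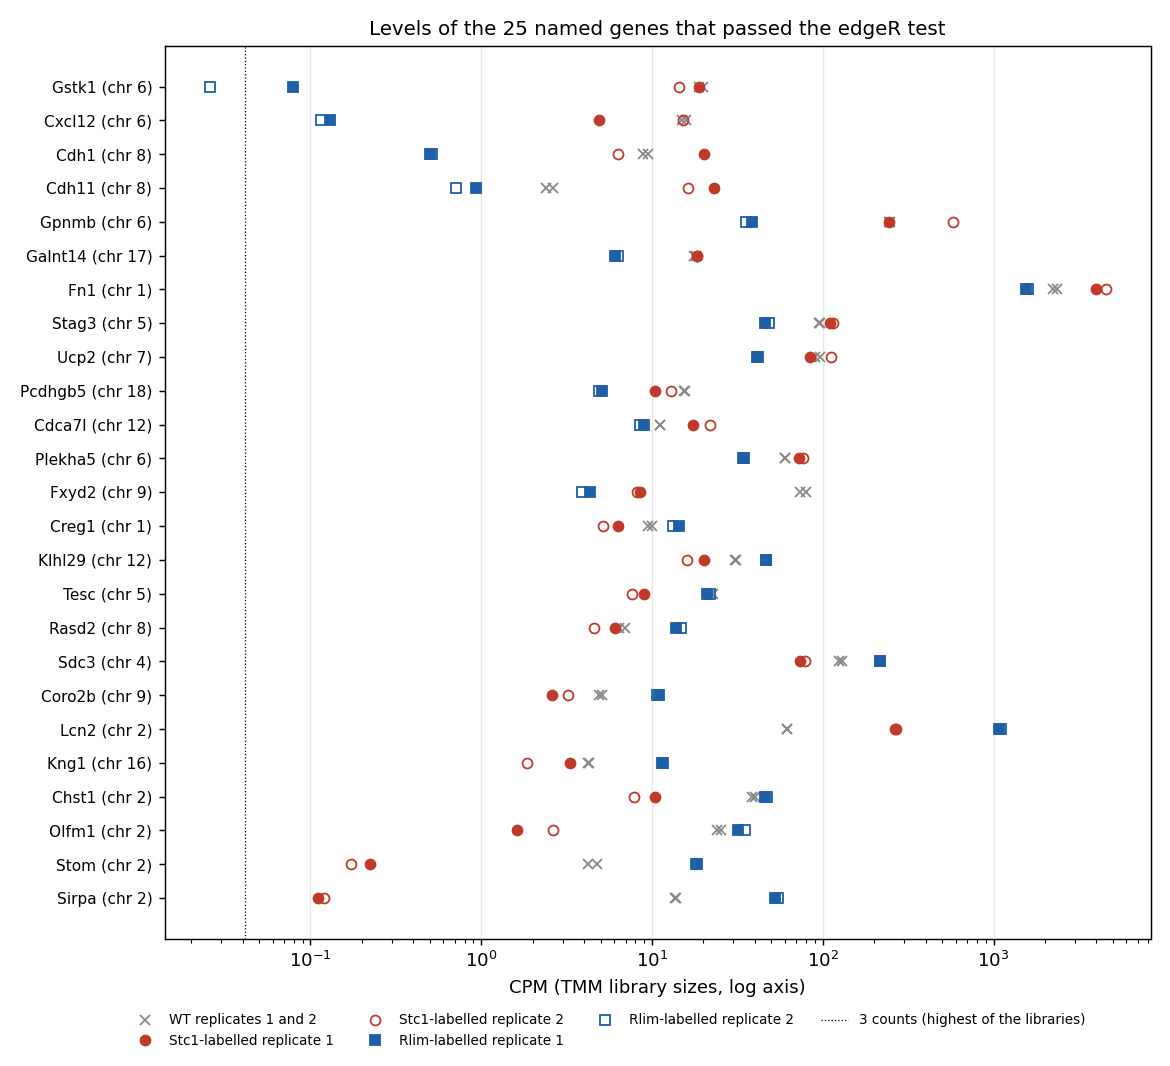
Levels of the 25 named genes that passed the edgeR test, in CPM on a log axis, ordered by log2 fold change, with filled and open symbols for replicates 1 and 2 and grey crosses for WT. Sirpa is at 0.111 and 0.12 CPM in the Stc1-labelled pair against 52.2 and 54.8 in the Rlim-labelled pair. The labels do not overlap for any gene drawn, which was an entry rule for most of them.

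Genes of chromosome 2 made up 23 of the 48 genes that passed as lower, or 47.9%, while chromosome 2 holds 7.79% of the genes tested. The largest fall among named genes was that of Sirpa (chromosome 2, 129592835 to 129632228), the gene of the membrane receptor that reads the "do not eat me" ligand CD47. Sirpa was at 0.111 and 0.12 CPM (8 and 9 counts) in the Stc1-labelled pair, at 52.2 and 54.8 CPM in the Rlim-labelled pair and at 13.6 and 13.9 CPM in WT. WT thus lay between the labels. The log2 fold change was -8.84 ± 0.196 (SE, n = 2 per group; edgeR, adjusted p = 1.43e-05). In bulk RNA, fewer cells that express a gene and less RNA per cell cannot be told apart.

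Stom (35313986 to 35336976), which encodes the membrane protein stomatin, was at 0.222 and 0.173 CPM in the Stc1-labelled pair, at 18.1 and 18.3 CPM in the Rlim-labelled pair and at 4.21 and 4.79 CPM in WT (log2 -6.52 ± 0.285; edgeR, adjusted p = 0.000775). Olfm1, a secreted olfactomedin, was at 1.63 and 2.62 CPM against 32 and 35 CPM, a 15.7-fold difference (edgeR, adjusted p = 0.0153). For Chst1, a sulfotransferase of keratan sulfate, the levels were 10.4 and 7.8 CPM against 45.7 and 47 CPM (5.08-fold; edgeR, adjusted p = 0.0087). WT stood at 24.1 and 25.4 CPM for Olfm1 and at 38.3 and 39.9 CPM for Chst1, between the labels but closer to the Rlim-labelled level. Lcn2 (32384633 to 32388252), the siderophore-binding lipocalin of acute inflammation and of injured tubules, was at 265 and 269 CPM in the Stc1-labelled pair against 1070 and 1100 CPM in the Rlim-labelled pair, while WT was at 61.5 and 62.1 CPM. Its log2 fold change was -2.03 ± 0.14 (SE; edgeR, adjusted p = 0.0087). Lcn2 was the case among these in which both labels stood above WT.

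Of the 23 chromosome 2 genes, 18 were below 1 CPM in both Stc1-labelled libraries, and 5 had no read in either (Ass1, Hnmt, Tgm5 and the antisense genes Banf2os and Gad1os); these were chosen for mention after their values were seen. Ass1 encodes argininosuccinate synthase, an enzyme of arginine synthesis and the urea cycle, and was at 6.53 and 7.05 CPM in the Rlim-labelled pair and at 0.0651 and 0.188 CPM in WT. Set against a floor of 3 counts per library, it was at least 167-fold lower in the Stc1-labelled pair (edgeR, adjusted p = 0.0166). Hnmt, which inactivates histamine, was at 1.42 and 1.23 CPM in the Rlim-labelled pair, at least 32.5-fold above the floor (edgeR, adjusted p = 0.0271), and at 0.143 and 0.138 CPM in WT. Others among the 23 were Serping1, the C1 inhibitor of complement, at 0.125 and 0.0932 against 4.05 and 4.02 CPM, and Fgf7, a growth factor for epithelial cells, at 0.319 and 0.213 against 6.96 and 7.04 CPM (edgeR, adjusted p = 0.0087 and 0.041). WT was at 0.117 and 0.15 CPM for Serping1 and at 0.586 and 0.313 CPM for Fgf7. For both genes WT thus lay near the Stc1-labelled level, and the Rlim-labelled pair stood above it. Pltp, the phospholipid transfer protein, was at 0 and 0.0799 against 7.55 and 7.75 CPM (edgeR, adjusted p = 0.0353), with WT between at 2.55 and 2.62 CPM. It overlaps Ctsa, and the strand setting of the counting is not given. Of the chromosome 2 genes that passed, Madd was the one that was higher, at 45.3 and 42.3 against 26.1 and 26 CPM. Serping1, Fgf7, Pltp and Madd were likewise chosen for mention after their values were seen.

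The reads assigned to a genome separated the labels in every window of chromosome 2. The median genome 1 share over 904 chromosome 2 genes was 1.34 and 1.39% in the Stc1-labelled pair against 23.5 and 23.3% in the Rlim-labelled pair, with 6.83 and 6.97% in WT. In 20 Mb windows along the chromosome it lay between 18.5 and 26.4% in the Rlim-labelled pair and between 0.242 and 4.22% in the Stc1-labelled pair. Genome 1 reads were lower in Stc1-labelled replicates 1 and 2 by a median log2 difference of -3.58 and -3.76 from the Rlim-labelled mean, while genome 2 reads differed by 0.275 and 0.0888. All reads together gave a median log2 fold change of -0.104 over the 1390 chromosome 2 genes tested, so the typical gene of this chromosome differed little in total RNA.

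**Figure D2:**
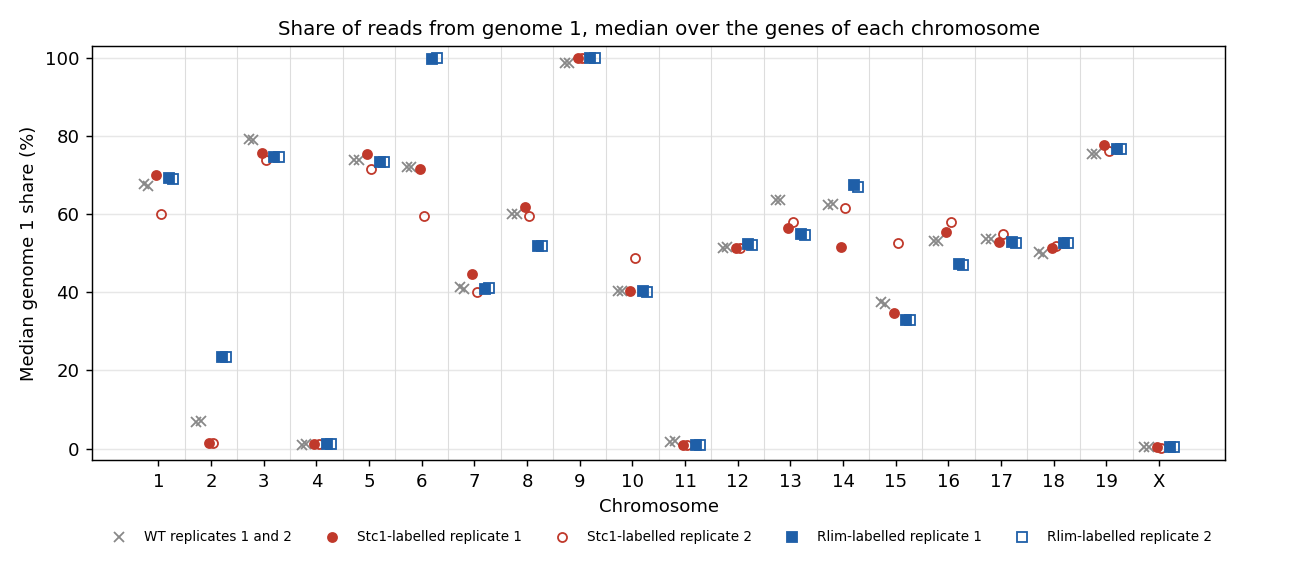
Median share of genome 1 among reads with a genome, in percent, over the genes of each chromosome. Genes had 50 or more such reads in each Stc1- and Rlim-labelled library, with no minimum set for WT. Symbols mark libraries as in the plot of levels. On chromosome 2 the Rlim-labelled libraries sit at 23.5 and 23.3% and the Stc1-labelled pair at 1.34 and 1.39%, and on chromosome 6 the Rlim-labelled pair sits at 99.7 and 99.8% and the Stc1-labelled pair at 71.6 and 59.5%.

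The chromosome 2 genes were also set against their genome 1 share in WT, which is in neither arm of the comparison; 1039 of the 1390 genes tested had at least 40 reads with a genome in the WT pair. Over 12 genes with a WT share of 90% or more the median log2 fold change was -0.249, with the lowest quartile at -5.8, and 4 passed as lower. The median was -0.119 over 27 genes at 50 to 90%, where 5 were 2-fold apart and lower and 1 was higher, -0.128 over 368 genes at 10 to 50% and -0.0776 over 632 genes below 10%. The class medians thus differed little, while some genes with a high WT share fell far. The WT minimum was reached by 12 of the 23 genes that passed as lower. Of the 23 genes, 22 had at least 40 reads with a genome in the Rlim-labelled pair, and their genome 1 share there had a median of 91.2%, with 14 over 50%. These genes entered through the pair in which they are high by selection, so that share is a description and no test of a link to genome 1. Of the reads of Sirpa, 5148 in the Rlim-labelled pair came from genome 1 and 353 from genome 2, against 9 and 1 in the Stc1-labelled pair. Lcn2 had 77478 genome 2 and 38871 genome 1 reads in the Rlim-labelled pair and 27305 and 66 in the Stc1-labelled pair, so it was lower on both genomes. Chst1 likewise had 1685 genome 2 and 892 genome 1 reads in the Rlim-labelled pair against 470 and 14.

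**Figure D3:**
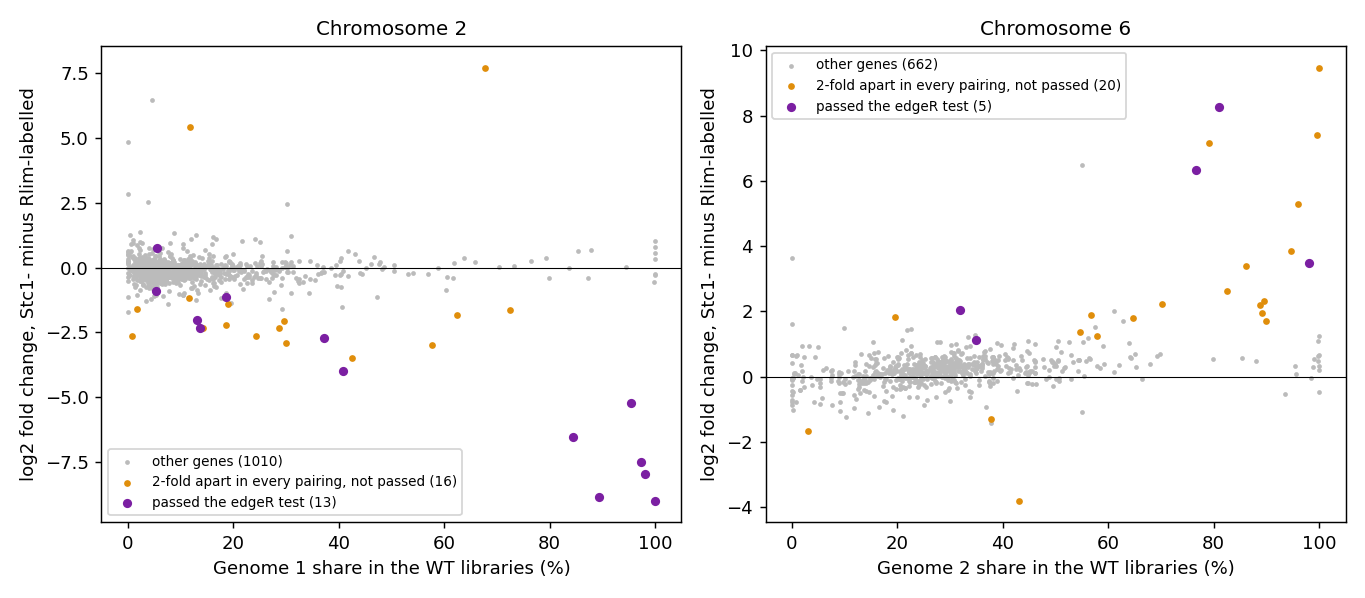
Log2 fold change of each tested gene against its genome 1 share (chromosome 2, left) or genome 2 share (chromosome 6, right) in the WT libraries, for genes with at least 40 reads with a genome in the WT pair. On chromosome 2 most genes lie near 0 at every share, with a median of -0.249 at 90% or more, and a few fall far; on chromosome 6 the median is 0.568 at 50 to 90% and 0.58 above.

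On chromosome 6 the genes that passed were all lower in the Rlim-labelled pair. It held 5 of the 20 genes that passed as higher, and 39 of the 167 that were 2-fold apart and higher, 23.4% of them, with 5.14% of the genes tested. Gstk1 (chromosome 6, 42245935 to 42250447), a glutathione transferase of mitochondria and peroxisomes, was at 18.8 and 14.4 CPM in the Stc1-labelled pair and at 18.8 and 20 CPM in WT, but at 0.0786 and 0.0257 CPM (6 and 2 counts) in the Rlim-labelled pair. The Stc1-labelled libraries thus matched WT in level and the Rlim-labelled pair held almost no read. The log2 fold change was 8.28 ± 1.05 (SE; edgeR, adjusted p = 0.0414). Cxcl12 (117168535 to 117181367), the chemokine ligand of CXCR4, was at 4.89 and 15.2 CPM in the Stc1-labelled pair, at 0.131 and 0.116 CPM in the Rlim-labelled pair and at 15.8 and 15 CPM in WT (log2 6.33 ± 0.646; edgeR, adjusted p = 0.0271). Here Stc1-labelled replicate 2 stood at the WT level and replicate 1 below it.

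Gpnmb (49036546 to 49070929), a transmembrane glycoprotein of lysosomes and melanosomes, was at 243 and 577 CPM in the Stc1-labelled pair against 38.4 and 35.6 CPM in the Rlim-labelled pair, with WT at 244 and 248 CPM (11.1-fold; edgeR, adjusted p = 0.0428). Plekha5, of a family with phosphoinositide-binding domains, was at 72.8 and 76.8 against 34.4 and 34.3 CPM (2.18-fold; edgeR, adjusted p = 0.0402). The 5 genes were completed by the noncoding RNA gene Gm7932, named after its values were seen. Several chromosome 6 genes were 2-fold apart in every pairing without passing the test. They included Rassf4, a RAS-association domain gene, and A2m, the protease inhibitor alpha-2-macroglobulin (edgeR, adjusted p = 0.0526 and 0.115). Both were chosen for mention after their values were seen.

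Median genome 1 shares on chromosome 6 were 71.6 and 59.5% in the Stc1-labelled pair against 99.7 and 99.8% in the Rlim-labelled pair, with 72 and 71.9% in WT. In 5 Mb windows the Rlim-labelled libraries were at 68.7 to 79.3% in the first 10 Mb, where WT was at 64.2 to 68.4%, and at 96.5% or more from 10 to 130 Mb. They were at 80.9 to 92.8% from 130 to 145 Mb, where WT was at 53.7 to 65%, and at 99.4 and 99.3% beyond. The median log2 difference of genome 2 reads from the Rlim-labelled mean was 5.71 and 5.78 in Stc1-labelled replicates 1 and 2. The Stc1-labelled replicates differed from each other on genome 1, at -0.0979 and -0.732: replicate 2 was at 49 to 66.2% genome 1 up to 110 Mb and at 54.9 to 74.3% beyond it, where replicate 1 was at 57 to 75.9%. Against the genome 2 share in WT, with 687 genes reaching the same read minimum, the median log2 fold change was 0.58 over 20 chromosome 6 genes at 90% or more, of which 6 were 2-fold apart and higher. It was 0.568 over 62 genes at 50 to 90% with 13 apart, 0.211 over 536 genes at 10 to 50% with 3 apart, and -0.0642 over 69 genes below 10%. All 5 chromosome 6 genes that passed reached that minimum.

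A test of the genome share itself, with the balance of genome 1 to genome 2 reads compared between the labels, passed for 1548 of 12460 genes (12.4%), with 1295 lower in genome 1 share in the Stc1-labelled pair (10.4%) and 253 higher (2.03%). Chromosome 2 gave 809 of its 955 genes tested (84.7%) and chromosome 6 gave 454 of 608 (74.7%). On chromosome 8 it was 182 of 718 (25.3%), of which 179 had more genome 1 in the Stc1-labelled pair, and on chromosome 16 it was 52 of 384 (13.5%), of which 51 did. The other chromosomes together gave 51 of 9795 (0.521%). The median genome 1 share on chromosome 8 was 61.7 and 59.6% in the Stc1-labelled pair, near the 60.1 and 60% of WT, and was 51.9% in both Rlim-labelled libraries. On chromosome 16 it was 55.4 and 57.9% against 47.2 and 47%, with 53.1 and 53% in WT. Without Rlim-labelled replicate 1 or 2 the counts were 584 and 599 in all, with 521 and 524 on chromosome 2, 53 and 60 on chromosome 6, 4 and 3 on chromosome 8, and 1 and 2 on chromosome 16. Without WT replicate 1 or 2 they were 875 and 872 in all, with 130 and 130 on chromosome 6, 21 and 21 on chromosome 8, and 5 and 4 on chromosome 16. Without Stc1-labelled replicate 1 or 2 they were 204 and 141 on chromosome 6 and 85 and 33 on chromosome 16, where leaving out either Pygo1-labelled replicate gave 82.

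**Figure D4:**
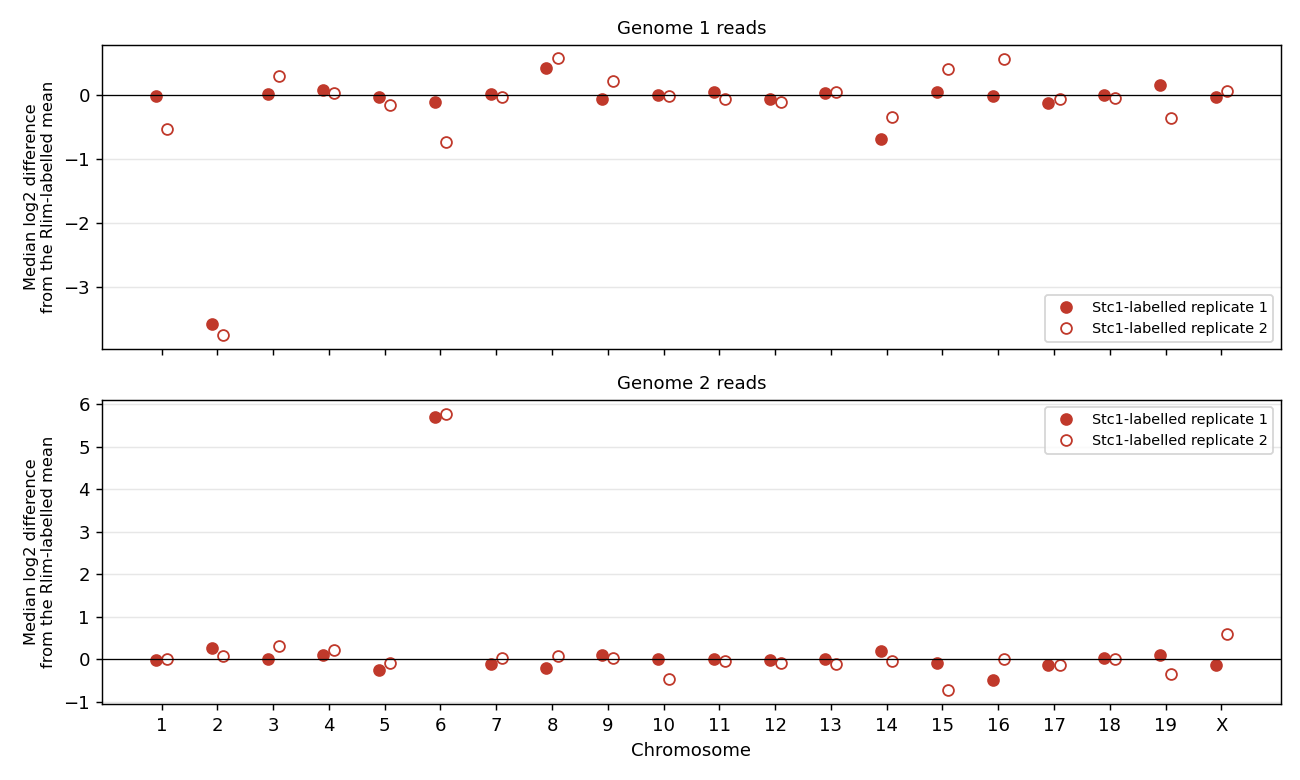
Median log2 difference of genome 1 reads (top) and genome 2 reads (bottom) of each Stc1-labelled library from the mean of the Rlim-labelled libraries, by chromosome, with 1 read added. Both replicates stand farthest from 0 on chromosome 2 for genome 1 (-3.58 and -3.76) and on chromosome 6 for genome 2 (5.71 and 5.78). On other chromosomes, among them 1, 10, 15, 16, 19 and X, the replicates differ from each other for at least 1 genome.

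The 2 Stc1-labelled lines did not share every such region. From 5 to 45 Mb of chromosome 1, replicate 1 was at 96.5 to 99.8% genome 1 in 5 Mb windows, whereas replicate 2 was at 59.6 to 67.7% and the Rlim-labelled libraries at 63.8 to 75.7%. On chromosome 15 the medians were 34.6 and 52.7% in the Stc1-labelled replicates against 32.8 and 32.8%, and on chromosome 14 they were 51.5 and 61.6% against 67.3 and 66.9%. The replicates of the label thus differed in these regions.

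Among genes with at least 100 reads with a genome in each of the 4 libraries, Gpnmb had the largest share difference, at 3.35 and 3.73% genome 1 in the Stc1-labelled pair against 90.8 and 90% in the Rlim-labelled pair (edgeR, adjusted p = 0.00181). On chromosome 2, Dpp7, a lysosomal dipeptidyl peptidase, was at 4.42 and 0.288% against 80.3 and 79% (edgeR, adjusted p = 0.00626). Its total RNA did not separate the labels, at 3.02 and 26.4 CPM against 11.3 and 11.1 CPM. On chromosome 6, Tmem72, the peptidoglycan sensor gene Nod1 and St3gal5, the synthase of ganglioside GM3, were at 15.4 to 42.9% genome 1 against 95.6 to 100% (edgeR, adjusted p between 0.0224 and 0.0481). Tmem72 was at 3.02 and 3.35 against 3.2 and 3.47 CPM, so its genome share differed while its total lay within the spread.

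In the direction of more genome 1 in the Stc1-labelled pair, the chromosome 8 genes Mmp15, a membrane-bound metalloproteinase, and Bst2, the antiviral protein tetherin, were at 37.9 and 44.7% against 11.9 and 11.2%, and at 48 and 47.8% against 23.5 and 23.1% (edgeR, adjusted p = 0.003 and 0.00119). Unc5b, a netrin receptor on chromosome 10, was at 92.7 and 96.6% against 70.5 and 70.6%. The chromosome 15 genes Pced1b and Lrrk2, the latter a kinase, were at 46.3 and 65.7% against 19.5 and 27.6%, and at 39.4 and 40.1% against 16.2 and 14.1% (edgeR, adjusted p = 0.0311, 0.0398 and 0.00923 for Unc5b, Pced1b and Lrrk2). None of these 5 genes passed the test on total RNA.

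Outside chromosomes 2, 6, 8 and 16, 21 of the 51 genes differed in share by over 20 percentage points; the ones named here were chosen after their values were seen. Gata4, a zinc-finger transcription factor of heart and endoderm, was at 2 and 4.02% genome 1 in the Stc1-labelled pair against 64.7 and 66.5% in the Rlim-labelled pair (edgeR, adjusted p = 0.000647). Its total was 20.2 and 10.4 against 47.7 and 49.4 CPM. Cdca7l, a relative of the chromatin protein CDCA7, had 538 and 691 genome 2 reads in the Stc1-labelled pair against 14 and 8 in the Rlim-labelled pair, with 391 and 508 against 453 and 463 genome 1 reads. Its total RNA was higher in the Stc1-labelled pair (17.5 and 21.8 against 8.94 and 8.53 CPM; edgeR, adjusted p = 0.0488), though it overlaps other genes. Lsr, a receptor of tricellular junctions, was at 52.5 and 53.6% against 99.3 and 99.5%. These genes lie on chromosomes 14, 12 and 7, on which the share test passed for 1, 2 and 4 genes.

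Of the genes that passed away from chromosomes 2 and 6, the cell-adhesion genes Cdh1 and Cdh11, both on chromosome 8, had the largest rises among those named. Cdh1 (106603351 to 106670246), the epithelial cadherin, was at 20.1 and 6.36 CPM in the Stc1-labelled pair, at 0.498 and 0.514 CPM in the Rlim-labelled pair and at 9.52 and 8.91 CPM in WT. Both Stc1-labelled libraries and WT were thus far above the Rlim-labelled pair, with a log2 fold change of 4.70 ± 0.587 (SE; edgeR, adjusted p = 0.041). Cdh11 (102632095 to 102785642), a cadherin of mesenchymal cells, was at 23.1 and 16.3 CPM against 0.931 and 0.707 CPM, and at 2.64 and 2.41 CPM in WT (log2 4.58 ± 0.5; edgeR, adjusted p = 0.0338). Of the 6 epithelial markers tested, Cdh1 was the one that was higher; Krt7, Krt8, Krt18, Epcam and Cldn4 had negative log2 fold changes and did not pass, and the markers summed to 57.1 and 31.7 against 53.4 and 60 CPM. The part of other cells in the Cdh1 result was not tested. The genome of the Cdh11 RNA differed between the Stc1-labelled replicates, at 23.5 and 94.7% genome 1.

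Fn1, the matrix glycoprotein fibronectin, was at 3970 and 4540 CPM in the Stc1-labelled pair, at 1540 and 1590 CPM in the Rlim-labelled pair and at 2230 and 2340 CPM in WT (log2 1.44 ± 0.15; edgeR, adjusted p = 0.0271), though Apol7d overlaps it. WT thus lay between the labels. Galnt14, which starts mucin-type O-glycosylation, was at 18.3 and 18.4 against 6.08 and 6.35 CPM, with WT at 17.6 and 18. Stag3, a cohesin subunit known from meiosis, was at 110 and 115 against 46.1 and 48.2 CPM, and Ucp2, a mitochondrial carrier, was at 84.4 and 112 against 41 and 41.9 CPM. For these 3 genes, of which Galnt14 and Ucp2 overlap another gene, the Stc1-labelled level lay near WT and the Rlim-labelled level below it (edgeR, adjusted p = 0.0353, 0.0432 and 0.0402). Pcdhgb5, of the protocadherin gamma cluster, passed too (2.35-fold; edgeR, adjusted p = 0.0451), but shares exons with the other genes of the cluster. Fxyd2, the gamma subunit of the Na,K-ATPase of kidney tubules, was at 8.48 and 8.19 against 4.34 and 3.88 CPM (log2 1.02 ± 0.126; edgeR, adjusted p = 0.041). WT was at 73.3 and 79.6 CPM, so the labels differed about a level far below WT.

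Downward, Kng1, the kininogen gene on chromosome 16, was at 3.32 and 1.86 CPM in the Stc1-labelled pair against 11.5 and 11.6 CPM in the Rlim-labelled pair (4.45-fold; edgeR, adjusted p = 0.0468). Coro2b, an actin-binding coronin, was at 2.59 and 3.23 against 11 and 10.7 CPM, and Sdc3, the heparan sulfate proteoglycan syndecan 3, was at 73.4 and 78.8 against 217 and 217 CPM (edgeR, adjusted p = 0.0353 and 0.0117). WT lay between the labels for all 3 genes, with Sdc3 at 124 and 129 CPM, although Sdc3 overlaps noncoding genes. Rasd2, a small GTPase, Tesc, a calcium-binding partner of the sodium-proton exchanger, Klhl29, of the kelch-like family, and Creg1, a secreted glycoprotein, were 2.4-fold to 2.7-fold lower (edgeR, adjusted p between 0.0353 and 0.0427). Tesc was at 8.99 and 7.64 CPM in the Stc1-labelled pair, while the Rlim-labelled pair, at 21 and 22 CPM, lay near WT at 22.2 and 22.8.

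Xist (chromosome X, 103460366 to 103483254) was at 850 and 440 CPM in the Stc1-labelled pair against 631 and 613 CPM in the Rlim-labelled pair. The Rlim-labelled values lay between those of the Stc1-labelled replicates, and the log2 fold change was 0.0528 ± 0.277 (SE; edgeR, adjusted p = 0.95). It was -0.502 without Stc1-labelled replicate 1, a fit with 1 library of that label. With each chromosome centred the log2 fold change was -0.00398, and by limma voom with a weight per group it was -0.0244. The median X-linked gene was -0.0845 from the Rlim-labelled mean in Stc1-labelled replicate 1 and 0.432 in replicate 2, and genome 2 reads gave -0.143 and 0.604. The Stc1-labelled replicates thus lay on either side of the Rlim-labelled mean over the X chromosome. Of 592 X-linked genes tested 1 passed, the pseudogene Gm5940.

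The genome 1 share of X-linked genes was at a median of 0.385 and 0.215% in the Stc1-labelled pair against 0.486 and 0.419% in the Rlim-labelled pair, and Xist came from genome 1 at 99.1 to 99.7%. Of 12 listed genes that escape X inactivation, 0 passed in edgeR, DESeq2 or limma voom on total RNA, with 3 at an unadjusted p under 0.05 in edgeR (Kdm5c, Mid1 and Utp14a), where 14.9% of all genes tested had one. Their median log2 fold change was 0.18. Genome 1 gave 44.2 and 21.8% of the reads of Kdm5c, a histone demethylase gene, in the Stc1-labelled replicates and 34 and 32.6% in the Rlim-labelled pair. For Kdm6a, another demethylase gene, it gave 53.8 and 25.6% against 39.4 and 40.8%, and for Eif2s3x, a translation initiation factor gene, 44.3 and 24.5% against 33.8 and 37.2%. In each of these 3 genes, chosen after their values were seen, the Stc1-labelled replicates lay on either side of the Rlim-labelled pair.

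In the gene lists 5 members passed, each in a different list, where 0.381% of all genes tested passed. Among 18 chemokine genes 1 passed (Cxcl12) and the median log2 fold change was 0.603, against 0.0201 over all genes tested. The CXCR2 ligand gene Cxcl5 was at 244 and 231 CPM against 420 and 415, and Cxcl10, induced by interferon, at 8.06 and 18.4 CPM against 4.29 and 4.27, without passing (edgeR, adjusted p = 0.234 for both). Among 21 acute phase and innate effector genes 1 passed as lower (Lcn2) and 7 were 2-fold apart and lower, or 1 in 3, where 2.07% of all genes were. The 7 were Lcn2, Saa1, Saa2, Saa3, Orm1, Cfb and Ptges. The median log2 fold change of this list was -0.0407, with 10 positive and 11 negative members. Its members summed to 2980 and 10100 CPM in the Stc1-labelled pair against 5980 and 6090 CPM, so the list did not fall as a whole. Saa3, a serum amyloid A gene, was at 19.3 and 64.3 CPM in the Stc1-labelled pair against 130 and 133 CPM in the Rlim-labelled pair (edgeR, adjusted p = 0.293), and reads of the similar Saa genes may be split between them. Nos2, the inducible nitric oxide synthase, was at 122 and 338 against 191 and 202 CPM, and C3, the central complement component, at 2150 and 8700 against 4000 and 4090 CPM, both with overlap.

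Of the epithelial junction genes 1 of 23 passed as higher (Cdh1), although the median of the list was -0.221 and 15 of its 23 members had a negative log2 fold change. Kidney tubule transport (27 genes, median 0.0504) had Fxyd2 as its passing member, and collagens and matrix (41 genes, median 0.0905) had Fn1. In the same matrix list Col5a2, Col6a3 and Nid1 were 2-fold apart and lower, at 0.0666 to 1.19 CPM against 2.42 to 6.21 CPM, where 2.07% of all genes were 2-fold apart and lower. Pecam1, an endothelial adhesion gene, was at 0.235 and 0.24 against 2.27 and 2.26 CPM, and Cdh5, the cadherin of endothelium, at 6.01 and 100 against 5.6 and 5.68 CPM (edgeR, adjusted p = 0.0759 and 0.305). Vwf, the other endothelial marker tested, went the opposite way to Pecam1, at 1.75 and 1.9 against 0.682 and 0.72 CPM (edgeR, adjusted p = 0.0996). Endothelial markers summed to 7.99 and 102 against 8.55 and 8.66 CPM, where Cdh5 gave most of the 102. The part of these markers in the results was not tested.

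In the other 19 lists, of 515 genes, 0 passed in edgeR, where 0.381% of all genes tested passed. An unadjusted p under 0.05 was found for 77 of the 515 genes and for 14.9% of all genes tested, and DESeq2 called 25 of the 515 and 4.9% of all genes, so these counts are at the background; limma voom called 1. Among 28 genes of cholesterol synthesis 22 had a positive log2 fold change (median 0.244), among 27 transcription factors of the nephric lineage 22 did (median 0.247), and among 38 genes of the ATF4 and unfolded protein response 26 had a negative one (median -0.191). The median over all genes tested was 0.0201. Dhcr7, of the last step of cholesterol synthesis, was at 146 and 125 against 90.3 and 94.8 CPM (edgeR, adjusted p = 0.225). The list of RLIM substrates and LIM-domain partners (13 genes, median -0.122) had Lhx2 and Lmo2, both on chromosome 2, as its members 2-fold apart and lower, where 2.07% of all genes were. Lhx2, a LIM-homeodomain factor, was at 0.54 and 0.226 against 3.95 and 4.55 CPM (edgeR, adjusted p = 0.0526). Ldb1, the cofactor that RLIM is known to target, was at 339 and 251 against 314 and 328 CPM, with overlap. Cell cycle genes (35, median -0.0589) and p53 targets (27, median 0.1) held no member that was 2-fold apart. Over all genes tested 3.01% were, so 0 in lists of this size is near that share.

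**Figure D5:**
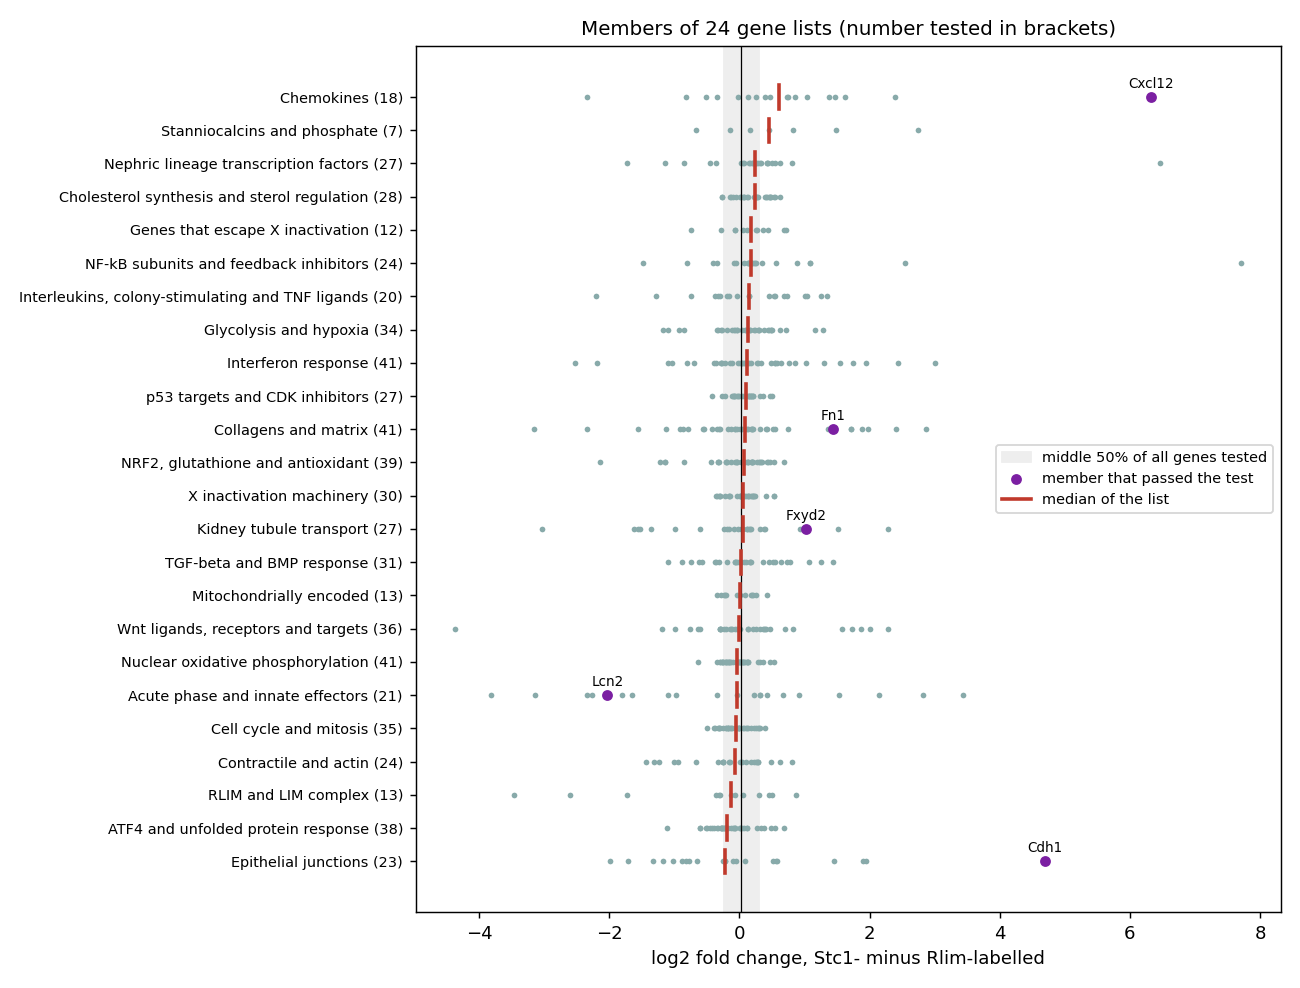
Log2 fold change of the tested members of 24 gene lists, with the median of each list as a red bar and the middle 50% of all genes tested (-0.239 to 0.302) shaded. The 5 members that passed the edgeR test, Cxcl12, Cdh1, Fn1, Fxyd2 and Lcn2, are labelled, and list medians run from -0.221 to 0.603.

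Large differences that did not pass the test included Sfrp1, a secreted inhibitor of Wnt signalling on chromosome 8. Sfrp1 was at 16.8 and 3.66 CPM in the Stc1-labelled pair, at 215 and 211 CPM in the Rlim-labelled pair and at 123 and 117 CPM in WT (log2 -4.37; edgeR, adjusted p = 0.0794). Both Stc1-labelled values were far below the others, but they differed from each other. Anpep, the aminopeptidase N of the tubular brush border, was at 2.8 and 1.94 against 7.08 and 6.48 CPM, and Gstm2, a glutathione transferase, at 20.4 and 3.59 against 50.2 and 55.5 CPM (edgeR, adjusted p = 0.0525 and 0.244). Pdgfra, a growth factor receptor of mesenchymal cells, was at 4.86 and 2.06 against 13.2 and 12.1 CPM (edgeR, adjusted p = 0.106).

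Processed pseudogenes, copies of a gene inserted elsewhere in the genome, were also among the separated genes. The best protein-coding match of each was the gene whose transcripts held most of its 25-base words, if they held at least 20%. Of 37 tested pseudogenes that were 2-fold apart and higher in the Stc1-labelled pair, 33 had a match, and for 18 of the 33 (54.5%) the match was a chromosome 6 gene, against 6.71% of the 1445 matched among all tested pseudogenes. Gapdh (chromosome 6, 125161715 to 125166467), the glycolytic dehydrogenase gene, held at least 20% of the words of 21 of the 33, against 5.95% of the 1445. The copies themselves lie mostly elsewhere: 17 of those 18 pseudogenes are not on chromosome 6. Gm3695 (chromosome 12) was at 445 and 531 CPM in the Stc1-labelled pair, 307 and 329 CPM in WT and 2.29 and 1.86 CPM in the Rlim-labelled pair. Gm2546 (chromosome 7) was at 291 and 357 against 2.46 and 2.83 CPM, and Gm10566 (chromosome 1) at 178 and 213 against 0.839 and 0.655 CPM (edgeR, adjusted p from 0.0835 to 0.0969 over the 3 copies). Gapdh itself was counted at 47.4 and 94.3 against 28 and 30.1 CPM (edgeR, adjusted p = 0.533).

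Downward, 13 pseudogenes were 2-fold apart, 8 had a match, and for 6 of the 8 (75%) it was a chromosome 2 gene, against 6.16% among all. Gm5424 on chromosome 10 matched Ass1, whose own values are given above, over 87.7% of its words, and was at 0.152 and 0.0133 against 5.53 and 5.9 CPM (edgeR, adjusted p = 0.0451). Gm5641 on chromosome 3 and Gm5940 on chromosome X matched Hnrnpa3 of chromosome 2, over 100 and 97.6% of their words, and passed as well (edgeR, adjusted p = 0.0215 and 0.0395). Hnrnpa3, an RNA-binding protein gene, was at 34.9 and 42.5 against 30.6 and 30.2 CPM, with 0.483 and 0.372% genome 1 against 11.4 and 11.6%. Among the genes that passed as higher, Gm12138 of chromosome 11 matched the aldose reductase gene Akr1b3 of chromosome 6 over 78.5% of its words. Reads of such a copy and of its match cannot be told apart where their words are shared, so calls on these pseudogenes are uncertain as to place. The pseudogenes were singled out after their values were seen.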

How the data were processed

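RNA was extracted with Trizol, prepared with a TruSeq kit and sequenced on a GAIIx, per the labels' protocols. The submitters' processing notes name mm10, featureCounts, Cufflinks and HISAT2 2.0.5. How reads were split by genome, the annotation, strand and treatment of multiply mapped reads are not given in the sources used here. The deposited values are whole-number counts for each Ensembl gene, over all reads and for each genome. Of 49670 genes, 49411 matched GENCODE M21 for symbols and places; the 259 others had no symbol and stayed in the library totals.

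Groups came from the labels. A quasi-likelihood model with a mean per group was fitted in edgeR 4.0.16 (R 4.3.3) over all 8 libraries, with TMM scaling and the default filter (17839 genes; biological coefficient of variation 24.6%; prior df 2.94), and Stc1_KO minus Rlim_KO was tested with Benjamini-Hochberg adjustment. Genome shares were tested in edgeR with a term per library and a genome term per group, for genes with at least 20 reads with a genome in every library; 329 genes whose genome counts exceeded all counts were left out. Both tests were tried on simulated data. In the expression simulation more calls were false than the threshold allows. The first genome-share simulation recovered none of its changed genes; it was then altered to smaller spread and larger changes, so it does not show the power for modest share differences. Alternatives used DESeq2 1.42.0 and limma 3.58.1; figures used matplotlib 3.10.9.

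Members and gene lists were chosen with earlier results of these data known. Named genes were Stc1, Rlim and Xist; the 12 largest rises and falls among genes that passed with a mean of at least 5 CPM and no overlap between labels; up to 3 passing members of each list; and 5 genes per direction of genome share with at least 100 reads with a genome in each library, passing over predicted genes. Other names are said to have been chosen afterwards or belong to a list. The labels give same-numbered libraries of different groups no shared origin, so they were not paired. Genes of chromosomes 2 and 6 were classed by WT genome share, a choice made after the values were seen.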

Additional observations from a re-analysis of the deposited data

How the results depend on the processing

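Of 68 genes that passed in edgeR, leaving out 1 library at a time gave 2 to 4844, no filter 333, the compared groups alone 12, the 6 knockout libraries 4, a threshold of 0.01 gave 5, and DESeq2 874. For the 23 lower genes of chromosome 2 the counts were 2 to 350 without 1 library, 43 without a filter, 14 with a filter of 1 CPM, 2 with the compared groups alone, 4 with the 6 knockout libraries, 58 by DESeq2, 8 by limma voom with group weights and 5 at a threshold of 0.01. By limma voom 44 of 60 genes were higher, against 20 of 68 in edgeR. The replicate block gave 7 genes and 5 on chromosome 2, and for genome shares 996 genes, 189 on chromosome 6, 54 on chromosome 8 and 4 on chromosome 16; same-numbered Stc1- and Rlim-labelled libraries had a correlation of deviations of -0.0139, and the other pairs of groups -0.211 to 0.395, the highest for WT with Rlim-labelled. Leaving out 1 library gave 584 to 1914 genes with a share difference, 521 to 829 on chromosome 2, 53 to 515 on chromosome 6, 3 to 268 on chromosome 8 and 1 to 85 on chromosome 16; the compared groups alone gave 66 and 12 on the last pair. Genes 2-fold apart numbered 803 to 2708 without 1 library of the contrast. All 25 named genes that passed kept their direction in every fit, and 2 of them passed with the compared groups alone. Most of the 25 were picked under a rule of no overlap between labels. Leaving out a library could therefore hardly turn their direction. With reads and shares taken from the Rlim-labelled pair, through which the falling genes enter, in place of WT, the median of chromosome 2 genes at 90% or more was -4.38 instead of -0.249; the like choice on chromosome 6, from the Stc1-labelled pair, gave 0.646 instead of 0.58. The cause of the other shifts was not tested.

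Median log2 fold changes per chromosome moved when a Stc1- or Rlim-labelled replicate was left out. Their ranges were -0.314 to -0.0168 on chromosome 1, -0.237 to -0.0419 on 2, 0.0147 to 0.378 on 3, 0.108 to 0.22 on 4, -0.155 to -0.0736 on 5, 0.032 to 0.34 on 6, -0.0435 to 0.0127 on 7, 0.159 to 0.37 on 8, -0.0313 to 0.211 on 9, -0.265 to 0.00259 on 10, -0.0482 to 0.00593 on 11, -0.11 to -0.0101 on 12, -0.0309 to 0.0837 on 13, -0.293 to -0.175 on 14, -0.282 to -0.0479 on 15, -0.241 to 0.271 on 16, -0.135 to -0.0469 on 17, 0.000266 to 0.0433 on 18, -0.333 to 0.174 on 19 and -0.11 to 0.526 on X. Log2 fold changes that turned sign, given without Stc1-labelled replicate 1 and then without replicate 2, were those of Lrrk2 (-0.499 and 0.553), Tmem72 (0.00623 and -0.145), Rlim (0.153 and -1.01), Xist (-0.502 and 0.449), Stc1 (2.4 and -1.82), Dpp7 (1.23 and -1.9), Pced1b (0.91 and -0.241) and Bst2 (0.539 and -0.0131). Xist also turned with each chromosome centred (-0.00398) and by limma voom (-0.0244), as did Dpp7 by limma voom (-0.313). None of these genes had passed on total RNA with all 8 libraries.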
